A study of Homo sapiens with 3 samples.

Results

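The integrin and laminin genes were followed in HCT116 cells after knockdown of the arginine methyltransferase PRMT1. The family was chosen with earlier results of these data known. Its members were all non-control probes named for an integrin alpha chain, an integrin beta chain or a laminin chain, taken by name alone. This gave 58 probes for 38 genes of the 41749 gene names on the array. Of these, 26 were integrin genes (18 alpha and 8 beta chains) and 12 were laminin genes. Each gene was represented by its brightest probe over the arrays.

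HCT116 is an established human colorectal cancer cell line. Total RNA was labelled with Cy3 and hybridised to 1-colour Agilent arrays with 60-base probes, with 1 array each for the negative control (NC) and for the knockdowns PRMT1-KD1 (KD1 here) and PRMT1-KD2 (KD2 here). Per the labels, the siRNAs were delivered by lipid transfection, which gives a transient knockdown in a pool of cells. The labels list 2 siRNAs against PRMT1 and do not say which of them was used for KD1 and which for KD2. The 3 arrays shared 1 slide and 1 scan. Since there were no replicate arrays, differences between groups could not be set against replicate error. KD1 and KD2 share their NC array, so changes given side by side share its error. The comparison asked how the genes of cell attachment differed when PRMT1 was lowered.

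Integrins are receptors in the cell membrane, each made of an alpha and a beta chain, that hold the cell to proteins outside it and pass signals into it. Laminins are secreted proteins of the basement membrane, each made of an alpha, a beta and a gamma chain. In the gut, epithelial cells sit on a laminin-rich basement membrane and are bound to it by integrins such as alpha6-beta4, which is part of the hemidesmosome, and alpha3-beta1.

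The siRNAs are shown because they define the groups. They are printed 5′ to 3′ as the labels list them, with no letters marked.
PRMT1 siRNA-1: cugaaguccaggucgauggugaaguc
PRMT1 siRNA-2: uuguagucuuuguacugcc

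The probes below carry the values on which the results turn. Their first 30 bases are printed, 5′ to 3′, with no letters marked. The LAMB1 and ITGB2 probes are given in pairs because the probes of a pair did not behave alike.
LAMC1: accttaattacactcccgcaacacagccat
ITGAV: aaagagtgattaagtgaggttatttacccc
ITGB1: tgcaaccccaactacactggcagtgcatgt
ITGAM: gtctccctttccagatattcaagtcacctc
LAMB1 brightest probe: agactggaaggagaagtccgttcactccta
LAMB1 second probe: ttgaacatttgccttttttcccctcctttc
ITGB2 brightest probe: tgtccccacaaaaagtgacgctttacctgc
ITGB2 second probe: gccaatttatttacatttaaacttgtcagg

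On genome build hg19, as the array files give it, the LAMC1 probe lay at chr1:183114406-183114465 on the plus strand and the ITGAV probe at chr2:187545295-187545354 on the plus strand. The ITGB1 probe lay at chr10:33200507-33200566 on the minus strand and the ITGAM probe at chr16:31343816-31343875 on the plus strand. The brightest LAMB1 probe lay at chr7:107564411-107564470 and the second at chr7:107643398-107643457, both on the minus strand. The brightest ITGB2 probe spanned chr21:46321625-46326865 on the minus strand, which is 5241 bases of genome for a 60-base probe, and so crossed at least 1 splice junction. The second ITGB2 probe lay at chr21:46305926-46305985. Placement in exons or untranslated regions was not analysed here.

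PRMT1 itself was far lower in both knockdowns. Its normalized log2 signal, which is the log2 intensity less the 75th percentile of the array, fell from 6.01 on NC to 2.75 on KD1 and 1.45 on KD2. The KD1 level was 10.4% of NC and the KD2 level was 4.24% of NC.

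In HCT116 cells, 14 of 26 integrin genes and 10 of 12 laminin genes gave a signal well above background on all 3 arrays. Of the 38 genes, 24 were well above background on all 3 arrays, 4 on 1 array alone and 10 on none. The 10 genes not well above background on any array were ITGA2B, ITGA4, ITGA8, ITGAL, ITGAX, ITGB3, ITGB6, ITGB8, LAMA1 and LAMB4. These include the platelet chain ITGA2B and its partner ITGB3, and the leukocyte chains ITGAL and ITGAX. By array, 26 genes were above background on NC, 25 on KD1 and 25 on KD2. No fold is given for a gene that was dim on both arrays compared. The cells carried the markers of epithelium, since EPCAM, KRT8, KRT18, KRT19 and CDH1 were above background on all 3 arrays, as were the defining members ITGB1, ITGA6 and LAMB3. Within that list CDH1 was higher in both knockdowns while the keratins were lower, with changes in KD1 and KD2 of -0.87 and -0.40 for KRT8, -0.52 and -0.57 for KRT18 and -0.29 and -0.20 for KRT19. EPCAM changed by 0.30 and -0.0064.

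**Figure D1:**
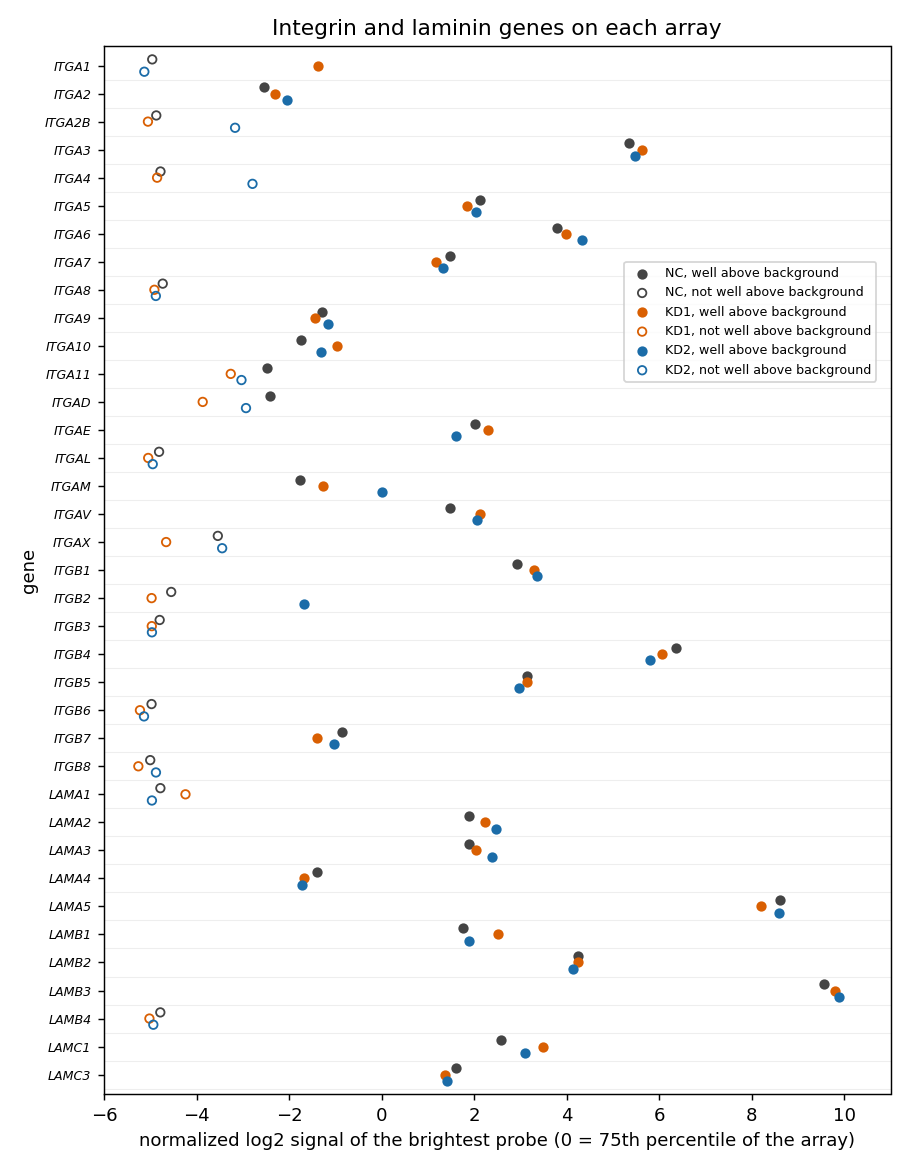
Normalized log2 signal of the brightest probe of each gene reported here (x axis) on the NC, KD1 and KD2 arrays, 1 point per array, with open points where the probe was not well above background. Points are to be compared within a row and not between rows, since probes differ in brightness. For LAMC1 the KD1 and KD2 points lie to the right of NC, and for ITGB4 they lie to the left.

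In KD1, 5 of 27 counted genes were higher by 1.5-fold or more (a log2 change of 0.585), against 13.2% of all genes counted. The 5 were the collagen-receptor chains ITGA1 and ITGA10, the fibronectin and vitronectin receptor chain ITGAV, and the laminin chains LAMB1 and LAMC1. A single gene, ITGAD, was lower, against 12.8% of all genes. In KD2, 2 of 27 counted genes, the leukocyte chains ITGAM and ITGB2, were higher, against 9.56% of all genes, and 0 were lower, against 10.7% of all genes. No gene of the 26 counted in both comparisons passed 1.5-fold the same way in both knockdowns, where 5.00% of all genes were higher in both and 5.36% were lower in both. The median log2 change of the counted genes was 0.19 in KD1 and 0.13 in KD2, and that of all genes was -0.04 and -0.05. The median of the members thus lay above that of all genes by 0.24 in KD1 and 0.18 in KD2.

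These counts depend on how the arrays were scaled to each other. With the spike-in probes as the scale, the median of all genes rose to 0.57 in KD1 and 0.24 in KD2. The members then numbered 17 higher and 0 lower in KD1, 11 higher and 0 lower in KD2 and 10 higher in both. The shares of all genes past 1.5-fold were not counted on this scale, so these counts are not a result about the members. A scaling that shifts all genes alike leaves the difference between the member median and the median of all genes as it is. Directions given for single genes hold for the 75th-percentile scale.

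Direction was counted among the 24 genes above background on all 3 arrays. Of these, 13 were above NC in both knockdowns, 7 were below NC in both and 4 went opposite ways. Over all 17054 such genes, 5365 were above NC in both, 7091 were below in both and 4598 went opposite ways. The changes of the 24 genes ran from -0.54 to 0.89 in KD1 and from -0.58 to 1.77 in KD2. They were thus spread to both sides of 0 in each knockdown, with more genes above it.

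**Figure D2:**
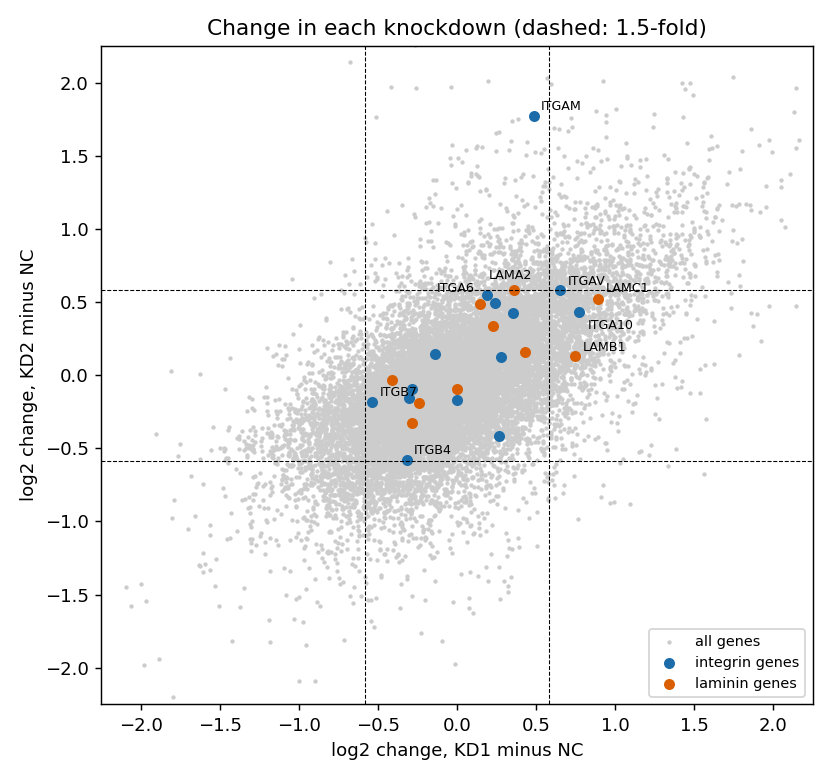
Log2 change from NC in KD1 (x axis) and KD2 (y axis) for the 17054 genes above background on all 3 arrays (grey) and the 14 integrin (blue) and 10 laminin (orange) genes among them, with dashed lines at 1.5-fold. Both axes share the NC array, and 10 grey points lie outside the axes. LAMC1, ITGA10, LAMB1 and ITGAV lie to the right of the 1.5-fold line of KD1, and ITGAM lies above that of KD2.

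With no replicates, the difference between the knockdown arrays served as a yardstick for single genes. Its robust SD over all genes on the log2 scale was 0.45 in the dimmest of 3 equal brightness classes, 0.39 in the middle class and 0.29 in the brightest. In KD1, 10 of the 24 genes changed by more than the SD of their class, against 44.9% of all genes. In KD2 the count was 11 of 24, against 38.7% of all genes. Between KD1 and KD2 it was 6 of 24, against 33.8% of all genes. That last share of all genes is set by the yardstick, which is the spread of the same difference.

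Laminin alpha chains give each laminin its receptor-binding end. LAMA5, the alpha chain of the laminins common to adult epithelium, had a log2 signal of 8.62 on NC, 8.21 on KD1 and 8.59 on KD2. At this probe it was lower on KD1, with a change of -0.41, and close to NC on KD2, with a change of -0.03. A second LAMA5 probe, on another transcript, read 1.52 on NC, 1.54 on KD1 and 1.26 on KD2. It placed KD2 and not KD1 below NC. LAMA3, the alpha chain of laminin-332, read 1.90 on NC, 2.04 on KD1 and 2.38 on KD2. Its changes were 0.14 in KD1 and 0.49 in KD2, so that KD2 stood above the other arrays. LAMA2, best known from muscle basement membrane, read 1.88, 2.24 and 2.47 on NC, KD1 and KD2. Its KD2 change of 0.5846 fell just short of the threshold of 0.5850. LAMA4, a chain of vessel-wall laminins, read -1.39 on NC, -1.67 on KD1 and -1.72 on KD2, with changes of -0.28 and -0.33. LAMA4 was dim and both knockdowns lay below NC at this probe. LAMA1 was not well above background on any array.

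Among the laminin beta chains, LAMB3 of laminin-332 read 9.56 on NC, 9.79 on KD1 and 9.89 on KD2. Both knockdowns stood above NC, by 0.23 and 0.33. LAMB1, a chain of laminins with LAMC1, read 1.77 on NC, 2.52 on KD1 and 1.90 on KD2. The KD1 array alone stood clearly higher, with a change of 0.75 (1.68-fold) in KD1 and of 0.13 in KD2. A second LAMB1 probe, above background on all arrays, went the other way in KD1, with a change of -0.61 (1.52-fold lower). LAMB2 read 4.24, 4.25 and 4.15 on the same arrays and was nearly level across them, with changes of 0.00 and -0.10. The fourth beta chain, LAMB4, was not well above background.

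The laminin gamma chains held the largest measured rise in KD1. LAMC1, the gamma chain of most laminins, read 2.59 on NC, 3.48 on KD1 and 3.11 on KD2. Both knockdowns were higher, by 0.89 (1.86-fold) in KD1 and 0.52 (1.43-fold) in KD2. The lowest KD1 change over the alternatives was 0.82. Its single KD1 spot had a pixel SD of 19.0% of its signal, more than 93.3% of spots of like brightness. The LAMC1 spot was also scattered on NC, at 16.3% (more than 87.3% of such spots), and on KD2, at 16.5% (more than 89.5%). The part of the spots in the values was not tested. LAMC3 read 1.61, 1.36 and 1.42 on NC, KD1 and KD2, with changes of -0.24 and -0.19, and so lay below NC in both knockdowns.

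LAMA3 and LAMB3 are chains of laminin-332, a laminin of the epithelial basement membrane that binds alpha3-beta1 and alpha6-beta4. Both were above NC in both knockdowns, by 0.14 and 0.23 in KD1 and by 0.49 and 0.33 in KD2. None of these values reached 1.5-fold.

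Laminin receptors followed no single direction. ITGA6, the alpha chain of the hemidesmosome receptor, read 3.79 on NC, 3.98 on KD1 and 4.34 on KD2. Both knockdowns were higher, by 0.19 and 0.55, and KD2 was the highest array. Its partner ITGB4, which links the receptor to keratin filaments, read 6.37 on NC, 6.05 on KD1 and 5.80 on KD2. Here both knockdowns were lower, with changes of -0.32 and -0.58, and KD2 was the lowest array. The 2 chains of alpha6-beta4 therefore lay on opposite sides of NC in each knockdown on this scale. With spike-in scaling the ITGB4 change was 0.29 in KD1 and -0.29 in KD2, while relative to the median of all genes, which such a scaling cannot change, it was -0.28 in KD1 and -0.53 in KD2.

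ITGB1, the beta chain shared by the largest group of integrins, had a probe printed at 10 spots on each array. The spot values ran from 2.89 to 3.05 on NC (median 2.92), from 3.24 to 3.35 on KD1 (median 3.28) and from 3.29 to 3.39 on KD2 (median 3.38). No knockdown spot overlapped the NC spots. The means were 2.94 on NC, 3.29 on KD1 and 3.36 on KD2, with SDs between spots of 0.047, 0.037 and 0.035, which are error within an array and not between cultures. The changes were 0.35 (1.28-fold) in KD1 and 0.42 (1.34-fold) in KD2.

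ITGA3, the alpha chain of the laminin receptor alpha3-beta1, read 5.35 on NC, 5.63 on KD1 and 5.47 on KD2. It lay slightly above NC in both, by 0.28 and 0.12. ITGA7, the muscle laminin receptor chain, read 1.48, 1.17 and 1.32 on NC, KD1 and KD2, with changes of -0.30 and -0.15, and lay below NC in both.

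Collagen-binding alpha chains were dim in these cells. ITGA10, a chain of cartilage, read -1.74 on NC, -0.97 on KD1 and -1.31 on KD2. Both knockdowns were higher, by 0.77 (1.71-fold) and 0.43 (1.35-fold). With normexp background correction the ITGA10 changes were 0.23 and 0.13, both short of 1.5-fold. ITGA2, the collagen receptor chain of epithelia and platelets, read -2.55 on NC, -2.30 on KD1 and -2.05 on KD2, with changes of 0.24 and 0.49. The signal was close to background, and with normexp correction the ITGA2 change in KD1 was -0.084. ITGA1 was well above background on the KD1 array alone, where it read -1.37, and it was not well above background on NC (-4.96) or KD2 (-5.13). Against the lowest signal well above background on NC, it was at least 2.55-fold higher in KD1, but with normexp correction the ITGA1 change was 0.48, short of 1.5-fold. Its single KD1 spot had a pixel SD of 29.0% of its signal, which is more than that of 90.0% of spots of like brightness, and the part of the spot in the value was not tested. ITGA11, a fibroblast collagen receptor chain, was well above background on NC alone, where it read -2.48, against -3.26 on KD1 and -3.03 on KD2. It was at least 1.43-fold lower in KD1 and at least 1.30-fold lower in KD2, and so did not reach the threshold. The ITGA1 and ITGA2 probes lie 140388 bases apart on chromosome 5.

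Alpha chains that bind the RGD motif of fibronectin and vitronectin differed from each other. ITGAV, which pairs with several beta chains, also had a probe printed at 10 spots. Its spots ran from 1.36 to 1.72 on NC (median 1.47), from 2.06 to 2.22 on KD1 (median 2.13) and from 1.94 to 2.14 on KD2 (median 2.05). The knockdown spots lay above all NC spots. The means were 1.48 on NC, 2.13 on KD1 and 2.06 on KD2, with SDs between spots of 0.10, 0.048 and 0.064. The change was 0.66 (1.57-fold) in KD1 and 0.58 (1.49-fold) in KD2, so the gene lay just past the threshold in KD1 and just short of it in KD2. ITGA5, the fibronectin receptor chain, read 2.13 on NC, 1.85 on KD1 and 2.03 on KD2. It lay below NC in both, with changes of -0.29 and -0.10. Outside this group, ITGA9, a receptor chain for tenascin and osteopontin, read -1.30, -1.43 and -1.15 on NC, KD1 and KD2. It went opposite ways, with changes of -0.14 and 0.14.

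**Figure D3:**
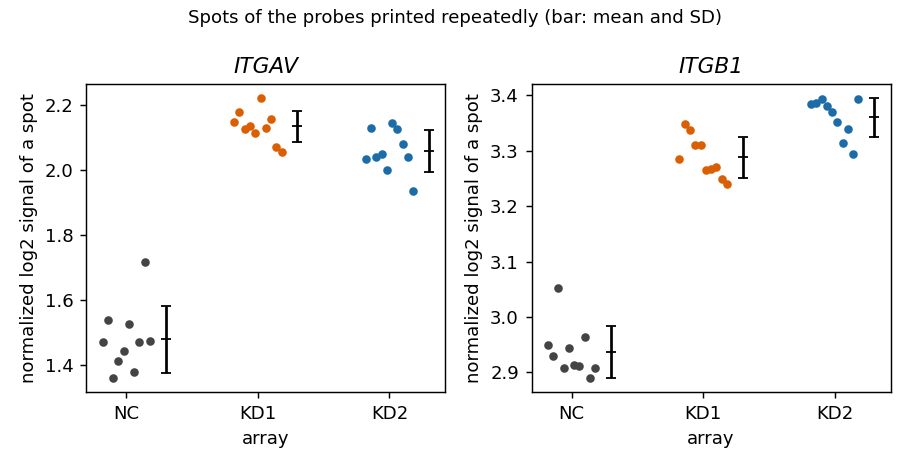
Normalized log2 signal of the 10 spots of the ITGAV probe (left) and of the ITGB1 probe (right) on each array (x axis), with the mean and SD between spots beside them. The spots of a probe on 1 array share 1 RNA sample, and for both genes the KD1 and KD2 spots lie above those of NC. The y axes do not start at 0.

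Leukocyte integrin chains gave the largest change in KD2. ITGAM, the alpha chain of the complement receptor Mac-1, read -1.76 on NC, -1.27 on KD1 and 0.02 on KD2. The KD2 array stood apart, with a change of 1.77 (3.42-fold) against 0.48 (1.40-fold) in KD1. It ranked 85 from the top among the 19421 genes counted in KD2. ITGB2, the beta chain that pairs with ITGAM, was well above background on the KD2 array alone, where it read -1.67, against -4.55 on NC and -4.97 on KD1. It was at least 2.06-fold higher in KD2 than on NC, and at least 2.50-fold higher in KD2 than in KD1. These bounds rest on a signal near background. The ITGB2 rise over NC passed 1.5-fold in 6 of 8 alternatives, and with normexp background correction it fell short. ITGAD, another partner of ITGB2, was above background on NC alone, where it read -2.40, against -3.87 on KD1 and -2.93 on KD2. It was at least 1.51-fold lower in KD1 and at least 1.37-fold lower in KD2. ITGAE, the chain of the E-cadherin receptor, read 2.03 on NC, 2.29 on KD1 and 1.61 on KD2. KD1 lay above NC by 0.26 and KD2 below it, with a change of -0.42. The ITGAM probe lies 50135 bases from that of ITGAX, and the ITGAX probe 21006 bases from that of ITGAD, on chromosome 16.

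Other values that moved with the KD2 readings of ITGAM and ITGB2 were as follows. Of the leukocyte markers, 4 of 5 were named on the array. CD14 was above background on all arrays, at -0.57 on NC, -0.52 on KD1 and -0.0021 on KD2. PTPRC was so on KD2 alone, at -2.32. CD3E was not well above background on any array. The log2 of the summed level of the list ran from -0.25 on NC to -0.14 on KD1 and 0.33 on KD2. The ITGAM spot on KD2 had a pixel SD of 23.4% of its signal, more than 94.0% of spots of like brightness, and the ITGB2 spot one of 35.9%, more than 96.7% of such spots. Their part in the result was not tested. With normexp background correction, the ITGAM change in KD2 was 0.77.

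The remaining beta chains were level or lower. ITGB5, a partner of ITGAV, read 3.14 on NC, 3.14 on KD1 and 2.97 on KD2. The KD1 change was 0.00 and the KD2 change was -0.17. ITGB7, a partner of ITGAE and ITGA4, read -0.85 on NC, -1.39 on KD1 and -1.03 on KD2. It lay below NC in both, with changes of -0.54 and -0.18. The partners ITGAE and ITGB7 thus lay on opposite sides of NC in KD1 and on the same side in KD2.

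Chains were next read as partners, from a list of known pairs and trimers drawn up after the values were seen. Of 24 integrin pairs, 12 had both chains above background on each array, and 11 did so on all 3 arrays. The array-specific pairs were ITGA11 with ITGB1 on NC, ITGA1 with ITGB1 on KD1 and ITGAM with ITGB2 on KD2. Of 14 laminin trimers, 12 had all chains above background on all 3 arrays, and the other two contain LAMA1. This counts transcripts and not assembled proteins.

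KD1 and KD2 were also compared with each other, which leaves NC out. Of 26 counted genes, 3 were higher in KD1, namely ITGA1, ITGAE and LAMB1, against 9.84% of all genes. The bound for ITGA1 was at least 2.80-fold, and the measured differences were 0.68 for ITGAE and 0.62 for LAMB1. In the other direction, 2 genes were lower in KD1, ITGAM with a difference of -1.29 and ITGB2 by the bound above, against 8.85% of all genes. LAMC1, ITGA10 and ITGAV, which passed 1.5-fold in KD1, did not pass it here, with differences of 0.37, 0.34 and 0.08.

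Where a gene had several probes, these often disagreed. Of the 6 genes with more than 1 probe above background on all arrays, 3 had the same sign at each such probe in KD1 and 3 had opposite signs, with the same counts in KD2. ITGA6 had 2 such probes, and the second changed by 0.26 in KD1 and 0.62 in KD2, close to the first. The second LAMB1 probe, on another transcript, read 0.13 on NC, -0.47 on KD1 and -0.14 on KD2. It went against the first, with changes of -0.61 and -0.27, and the mean over the LAMB1 probes changed by -0.05 in KD1. The second LAMB2 probe changed by 0.13 and 0.14, against 0.00 and -0.10 at the first. The second LAMA5 probe changed by 0.02 and -0.26, and the second LAMC3 probe by 0.21 and 0.31, the latter against the first in both knockdowns. A further LAMA4 probe, above background in the knockdowns alone, was at least 1.65-fold higher in KD1 and at least 1.63-fold higher in KD2, opposite to the brightest probe. One more LAMA4 probe was above background on KD2 alone. The second probes of ITGB2 and of ITGAD were not well above background on any array.

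**Figure D4:**
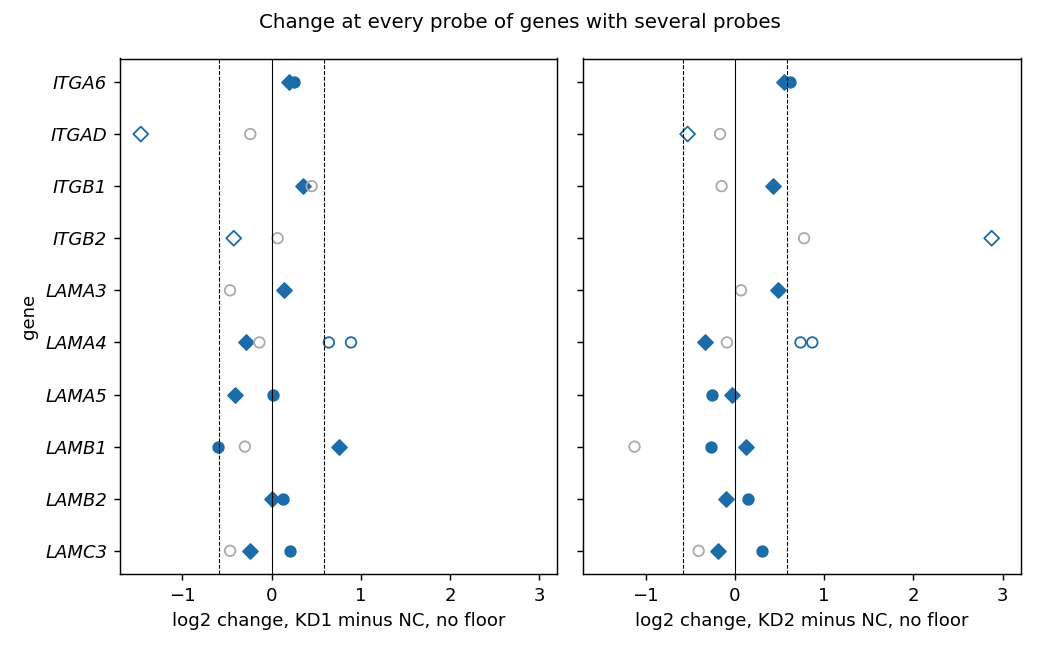
Log2 change from NC in KD1 (left) and KD2 (right) at every probe of the genes reported here with several probes and at least 1 of them above background, with no floor applied. Diamonds are the brightest probe and circles the others, filled where above background on all 3 arrays, open blue where on 1 or 2, and open grey where on none. For LAMB1 the filled points lie on opposite sides of 0, and for ITGA6 they lie together.

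Lists of genes that act with integrins and laminins were read beside the members. Of 30 genes for focal adhesion adaptors and kinases, which join integrins to actin and signalling, 6 were lower and 4 higher in KD1, 7 were lower and 3 higher in KD2, and 5 were lower and 3 higher in both. Over all genes, 12.8% were lower and 13.2% higher in KD1, 10.7% and 9.56% in KD2, and 5.36% and 5.00% in both. The list median was -0.08 in KD1 and 0.07 in KD2. The lower genes were FERMT3, TNS2, TNS4, ACTN4 and ACTN1. FERMT3, the kindlin of blood cells, read -1.05 on NC and was not well above background on KD1, at least 3.84-fold lower there, while its KD2 change was -1.29. TNS4, a tensin of the focal adhesion that the study followed up, read 4.44 on NC, 3.40 on KD1 and 3.45 on KD2. It was lower in both knockdowns. TNS2, another tensin, changed by -1.02 and -1.11. The actin cross-linkers ACTN4 and ACTN1 changed by -0.62 and -1.34, and by -0.71 and -0.67. The higher genes included TNS3 and PTK2. PTK2, the focal adhesion kinase, read 1.60, 2.51 and 2.20 on NC, KD1 and KD2, with changes of 0.91 and 0.60. TNS3 was not well above background on NC and was at least 2.16-fold higher in KD1 and at least 1.91-fold higher in KD2. Members of the tensin family thus lay on both sides of NC.

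Of 14 hemidesmosome and basement membrane partners, 9 were counted, with 2 lower and 1 higher in KD1 and 0 lower and 1 higher in KD2, against 12.8% lower and 13.2% higher over all genes in KD1 and 10.7% and 9.56% in KD2. The gene higher in both was COL4A6, a collagen IV chain, at -1.91 on NC, 0.14 on KD1 and -0.85 on KD2. Its changes were 2.05 and 1.06. Of 6 laminin receptors that are not integrins, 5 were named on the array and 3 were counted, and 1 of them, the syndecan SDC4, was higher in both knockdowns, against 5.00% of all genes, at 4.83 on NC, 6.01 on KD1 and 5.85 on KD2. Of 11 other integrin ligands, 7 were counted in KD1, with 1 lower and 2 higher, and 8 in KD2, with 0 lower and 4 higher, to be read beside the same shares of all genes. CCN1 (CYR61 on the array), a matricellular ligand of integrins, read 4.49 on NC, 6.08 on KD1 and 5.85 on KD2. CDH1, the E-cadherin ligand of ITGAE, read 1.23, 2.20 and 1.99. Both ligands were higher than NC in both knockdowns, by 1.59 and 1.35 for CCN1 and by 0.97 and 0.76 for CDH1.

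**Figure D5:**
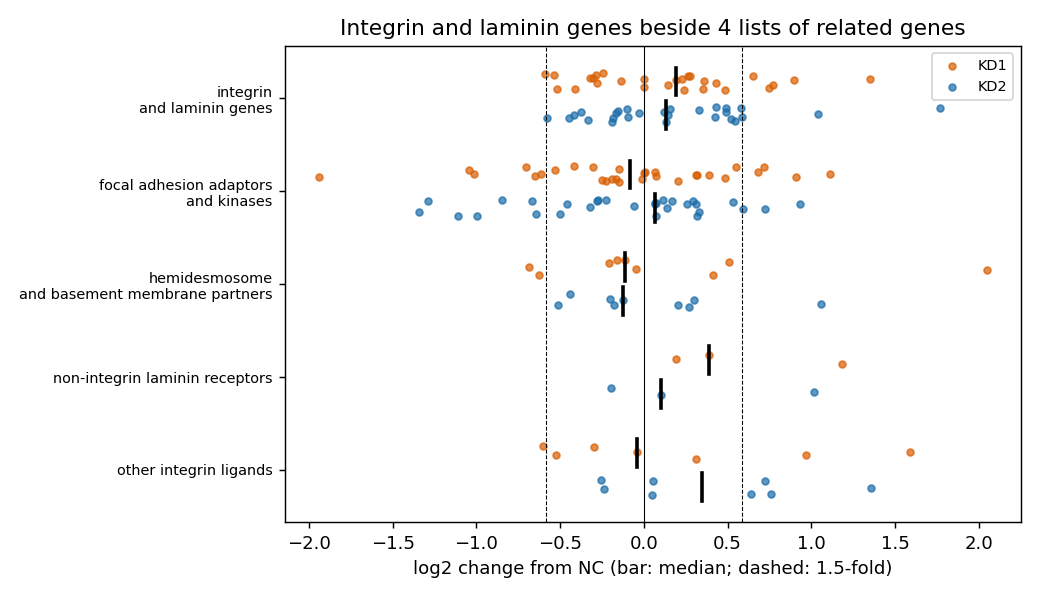
Log2 change from NC in KD1 (orange) and KD2 (blue) of each counted gene of the integrin and laminin set and of 4 lists of related genes, 1 point per gene, with the median as a bar and dashed lines at 1.5-fold. Points past the floor are bounds. The member medians are 0.19 and 0.13, and the focal adhesion medians are -0.08 and 0.07.

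Markers of other cells were few. Of 5 fibroblast markers, 1 (COL1A1) was above background on all arrays, with a summed log2 level of 1.58 on NC, 1.84 on KD1 and 2.18 on KD2. Of 4 endothelial markers, 2 (VWF and CDH5) were above background on all arrays, with summed log2 levels of -0.61, 0.14 and -0.32. Both summed levels were above NC in both knockdowns. COL1A1 changed by 0.28 in KD1 and 0.62 in KD2, VWF by -0.10 and 0.20, and CDH5 by 1.48 and 0.55. HCT116 is a cell line, and bulk RNA does not separate the number of cells with a transcript from its level per cell. The part of these genes in the member changes was not tested.

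The one model the 3 arrays allow pooled the knockdowns into 1 group of 2 arrays and set it against NC, whose single array was assumed to vary like theirs. By limma with Benjamini-Hochberg adjustment, 0 of 20050 genes passed an adjusted p of 0.05 (0% of genes called) and 1502 had an unadjusted p under 0.05. Of the 28 members tested, 0 passed the adjusted and 0 the unadjusted threshold, and the lowest adjusted p from limma was 0.663. With an intensity trend in limma, no member passed the adjusted threshold either.

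Promoter sequence was available for 26 of the 38 genes, in 33 windows of 250 bases before the start site, taken from RefSeq on build GRCh38.p14. Both strands were searched for a GC box (GGGCGG or CCGCCC), an AP-1 site (TGACTCA or TGAGTCA) and a TATA box (TATAAA or TTTATA), and by their letters no match of 1 motif can overlap a match of another. The GC box was found in 17 of 33 member windows (51.5%) and in 42.6% of all 35116 windows. AP-1 letters were found in 2 of 33 (6.06%), in LAMA3 and LAMB3, and in 4.20% of all windows, and TATA letters in 6.06% of member windows and 10.7% of all. LAMC1 and LAMB1 are shown because both were higher in KD1 at their brightest probe, although the second LAMB1 probe was lower, with 3 and 4 GC-box matches, the last 2 in LAMB1 overlapping, and LAMA3 because it holds 2 AP-1 matches, all matches of the GC box and AP-1 in capitals. The windows are LAMC1 at chr1:183023170-183023419 on the plus strand, LAMB1 at chr7:108003162-108003411 on the minus strand, and LAMA3 at chr18:23872770-23873019 on the plus strand.
LAMC1: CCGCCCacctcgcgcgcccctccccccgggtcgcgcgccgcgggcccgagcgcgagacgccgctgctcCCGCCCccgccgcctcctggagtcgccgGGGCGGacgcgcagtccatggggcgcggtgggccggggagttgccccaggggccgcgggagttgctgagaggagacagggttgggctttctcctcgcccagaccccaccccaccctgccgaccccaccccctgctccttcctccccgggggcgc
LAMB1: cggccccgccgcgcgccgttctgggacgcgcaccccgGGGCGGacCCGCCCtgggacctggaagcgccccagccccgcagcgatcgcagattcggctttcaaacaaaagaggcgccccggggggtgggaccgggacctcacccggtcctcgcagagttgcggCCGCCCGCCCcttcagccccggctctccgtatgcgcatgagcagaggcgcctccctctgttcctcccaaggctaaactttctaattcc
LAMA3: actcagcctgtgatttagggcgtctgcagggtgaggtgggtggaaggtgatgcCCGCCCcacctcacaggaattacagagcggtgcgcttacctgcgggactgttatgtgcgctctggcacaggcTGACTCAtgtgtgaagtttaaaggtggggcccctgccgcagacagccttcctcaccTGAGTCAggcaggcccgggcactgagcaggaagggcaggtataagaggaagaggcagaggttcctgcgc
The ITGAV windows held no GC-box match. A match of letters is a description and not a binding site.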

How the data were processed

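Total RNA of HCT116 cells was measured on 3 Agilent arrays, 1 for each of NC, PRMT1-KD1 and PRMT1-KD2. The authors deposited scanner output with intensity values, made with Agilent Feature Extraction 10.7.1.1 according to their processing notes, which per the file headers had corrected the background on each array and had not scaled between arrays. The series matrix, also deposited, gives mean probe intensity without scaling.

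Control spots and spots flagged as non-uniform or as population outliers were left out, log2 values of a probe's spots were averaged and the 75th percentile of the non-control probes of the array was taken off. A gene was its brightest probe, counted when well above background on at least 1 array compared. On an array where it was dim, its own signal or the lowest signal well above background was used, whichever was higher. The threshold was 1.5-fold, from the study's methods, whose p-value needs replicates. Analyses used Python 3.11.15, numpy 2.4.6, pandas 2.3.3, R 4.3.3 and limma 3.58.1, and the limma and counting steps were tested on simulated data. The number of arrays limits the precision.

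Members and lists were chosen with earlier results of these data known. By the naming rule, every member was accounted for in the counts, with values where well above background on at least 1 array, and the pathway genes named were at most 12, all beyond 1.5-fold with 1 sign in KD1 and KD2. PRMT1 and TNS4 were added, and single genes in the count of KD1 against KD2 were named as they arose. RPSA and LYZ were not named on the array. Alternatives were normexp background correction (offset 50), quantile, median, detected-probe and spike-in scaling (8 probes), the series matrix, stricter and no filters, the mean over probes and a fold of 2. Single values of a few genes of the rule are not reported here, though counts and medians hold them. The SMARCA4 arrays were not analysed here.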

Additional observations from a re-analysis of the deposited data

How the results depend on the processing

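No paired analysis was possible because each group had 1 array. The difference between the member median and that of all genes cannot move under scalings that shift all genes alike (median, detected-probe, spike-in and the series matrix). Over the settings that can move it (normexp, quantile, filters and the mean over probes) it ran from 0.10 to 0.27 in KD1 and from 0.15 to 0.21 in KD2. Spike-in scaling and the unscaled series matrix moved the median of all genes to 0.57 and 0.35 in KD1, and to 0.24 and 0.05 in KD2. Of 480 member values over the alternatives, 411 shifted by less than the robust SD of KD1 minus KD2 over all genes (0.38), 65 shifted by more and 4 past 1.5-fold changed sign.

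Members lower in KD1 numbered 0 with normexp, quantile or median scaling, spike-in scaling, the series matrix, the stricter filter, the mean over probes or a fold of 2, and 3 with the detected-probe percentile or no filter. Members higher in KD1 numbered 3 with normexp, 17 with spike-in scaling, 13 with the series matrix and 1 with a fold of 2. In KD2, 1 was higher with normexp or the stricter filter, 5 with quantile or the detected-probe percentile, 11 with spike-in scaling, 8 with the series matrix and 4 with no filter, and 2 were lower with median scaling. Members higher in both numbered 1 with median scaling or the mean over probes, 10 with spike-in scaling and 5 with the series matrix. The shares of all genes were not counted under these alternatives, so these counts describe the settings and not the members. The member median was 0.80 in KD1 with spike-in scaling, 0.58 with the series matrix and -0.11 with no filter, and -0.0192 in KD2 with median scaling. The limma trend brought no member past the adjusted threshold.

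List medians that changed sign were, for focal adhesion, 0.0214 in KD1 and -0.0816 in KD2 with median scaling, and in KD1 0.53 with spike-in scaling and 0.31 with the matrix. For the hemidesmosome list spike-in scaling gave 0.50 in KD1 and 0.17 in KD2, against 0.28 in KD1 with the matrix and 0.21 in KD2 with the mean over probes. For non-integrin receptors they were -0.0438 with median scaling and -0.17 with no filter in KD2, and for other ligands in KD1 0.0635, 0.57 and 0.35 with median scaling, spike-in scaling and the matrix. ITGAD in KD1 was 0.0175 with spike-in scaling and 0.68 with the mean over probes, ITGB2 in KD2 was -0.0875 and LAMB1 in KD1 -0.0516 with the mean over probes. Averaging in a dim probe puts ITGAD and ITGB2 near or below the floor of the other array by construction. The cause of the other shifts was not tested. Signals of ITGA1, ITGA2, ITGA11, ITGAD and ITGB2 were near background, which limits their values to bounds or wide errors.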
